A study of Mus musculus with 2 samples.

Results

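Neutrophils of the infarcted mouse ventricle were described from the deposited comparisons of clusters 1 and 18, the 2 clusters that the study named neutrophils in droplet single-cell RNA sequencing of interstitial heart cells. All rows of both comparison tables were taken. Cluster 1 listed 317 genes and cluster 18 listed 1426, together 1596 of the 6477 genes listed in any of the 18 cluster tables. A gene was listed in a cluster only if its average log2 fold change between libraries reached 0.25 in size and at least 25% of cells of either library held it, so every listed gene had already been selected on this contrast. The measure used here is the share of cells of a cluster with the transcript in each library, in percent, and a difference between shares is given in percentage points.

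Each group was 1 library, so no value has a replicate error and no test was made. The control library came from ventricles of PostnMCM mice, which express a tamoxifen-inducible Cre recombinase from the Postn locus. The other, of genotype Yapfl/fl;Wwtr1fl/+;PostnMCM, had loxP sites around Yap1 on both chromosomes and around Wwtr1 (the gene of TAZ) on 1. Adult mice of both groups also carried the R26-eGFP transgene, underwent myocardial infarction (MI), received chow with tamoxifen at 0.4 g/kg from the day of surgery, and per the labels gave hearts 6 days after MI. Live nucleated cells were sorted before capture. The sex of the mice and the number of hearts in each library are not given in the sources used here. Postn is active in fibroblasts that turn into myofibroblasts after injury and not in neutrophils, so the comparison asks how neutrophils differed between hearts in which Cre was directed at another cell type.

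Neither Yap1 nor Wwtr1 was listed in clusters 1 or 18. In the 4 fibroblast subclusters with deposited tables, the share of cells with Yap1 was 46.2%, 23.3%, 57.5% and 30.4% in the control library and 56.2%, 43.5%, 40% and 47.6% in the other, so it was lower in 1 of the 4. Wwtr1 was lower in 3 of the 4, with the largest gap in subcluster 4, from 80% to 60%. Shares of the second library came in wide steps in these subclusters, widest in subcluster 4, which leaves few cells behind each share. Since Yap1 was higher in 3 of the 4, the second library is named only by its label, as the labelled-depleted library. The tables give neither cell numbers nor depth per cell, and the depth behind each share is unknown.

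Neutrophils are short-lived phagocytes that leave the bone marrow with ready-made granules and enter infarcted muscle within hours of injury. As they mature they load successive granule sets, carrying antimicrobial and matrix-degrading proteins such as lactotransferrin, lipocalin 2 and chitinase-like proteins, and then switch those genes off. In tissue they sense microbial and damage signals through Toll-like, C-type lectin, formyl peptide and Fc receptors, and they release cytokines and chemokines that call in or restrain other leukocytes. Type I interferon induces a separate gene program in them through a transcription factor complex that contains IRF9.

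The cluster names were checked against 4 neutrophil markers, S100a8, S100a9, Retnlg and Csf3r. Retnlg, which encodes resistin-like gamma and is found in mature neutrophils, was listed in both clusters. Its share in cluster 1 was 85.9% in the control library and 64.1% in the labelled-depleted library, and in cluster 18 it was 63.6% and 70.6%. S100a8, S100a9 and Csf3r were not listed in either cluster, so they have no value there and could not check the names. A wider list of 20 neutrophil markers had 9 listed members in cluster 1. Of the 9, 3 were lower by at least 10 points and 3 higher, beside 21.5% lower and 22.1% higher among all cluster 1 genes. They included Lcn2 at 71% and 44%, Wfdc21 at 69.3% and 54.4%, and Wfdc17 at 99.4% and 99.2%. The C-type lectin Clec4d was at 81.3% and 87.6%, and the histamine-forming enzyme Hdc at 77.3% and 84.2%. The 3 higher ones were the decoy interleukin 1 receptor Il1r2 at 59.8% and 69.9%, Trem1 at 35.1% and 54.4%, and G0s2 at 19.5% and 35.1%. Cluster 18 listed 5 of the 20, with 3 lower by at least 10 points and 1 higher, beside 51.9% lower and 29.5% higher among all its genes. The lower ones included the chemokine receptor Cxcr2 at 81.8% and 70.6% and the collagenase Mmp8 at 63.6% and 47.1%, and the higher one was Il1r2 at 45.5% and 58.8%. No marker of T and NK cells, B cells, dendritic cells, endothelial cells or cardiomyocytes was listed in either cluster. A marker at the same level in both libraries would also be unlisted, so this absence could not check the names either. Fibroblast and erythroid markers were not listed in cluster 1, but 4 fibroblast markers and 1 erythroid marker were listed in cluster 18 and are given with it below.

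Cluster 1 differed between libraries in both directions. Of its 317 genes, 68 (21.5%) were lower by at least 10 percentage points in the labelled-depleted library, 70 (22.1%) were higher by at least 10 points, and 179 moved by less. At 5 points 82 were lower and 124 higher, and without a threshold 112 were lower and 173 higher, so the near balance held at 10 points but not below. Because a gene needed 25% of cells in only one library, 34 of the 70 higher genes, with control shares under 25%, were listed through the labelled-depleted library alone, and 22 of the 68 lower genes through the control library alone. Such genes had to differ, and the counts per gene group below describe listed members without standing as support for the group. Across all 317 genes the median difference was 1.0 points. In 79 genes both shares were at least 95%, and such genes can show no direction by this measure. These saturated genes included all 15 listed ribosomal protein genes, B2m, Tmsb4x, Actg1, Fth1 and S100a11, each found in 100% of cells of both libraries apart from some of the ribosomal genes. The largest falls with established symbols were those of R3hdm4 and Lcn2, and the largest rises those of Cxcl2 and Marcksl1.

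**Figure D1:**
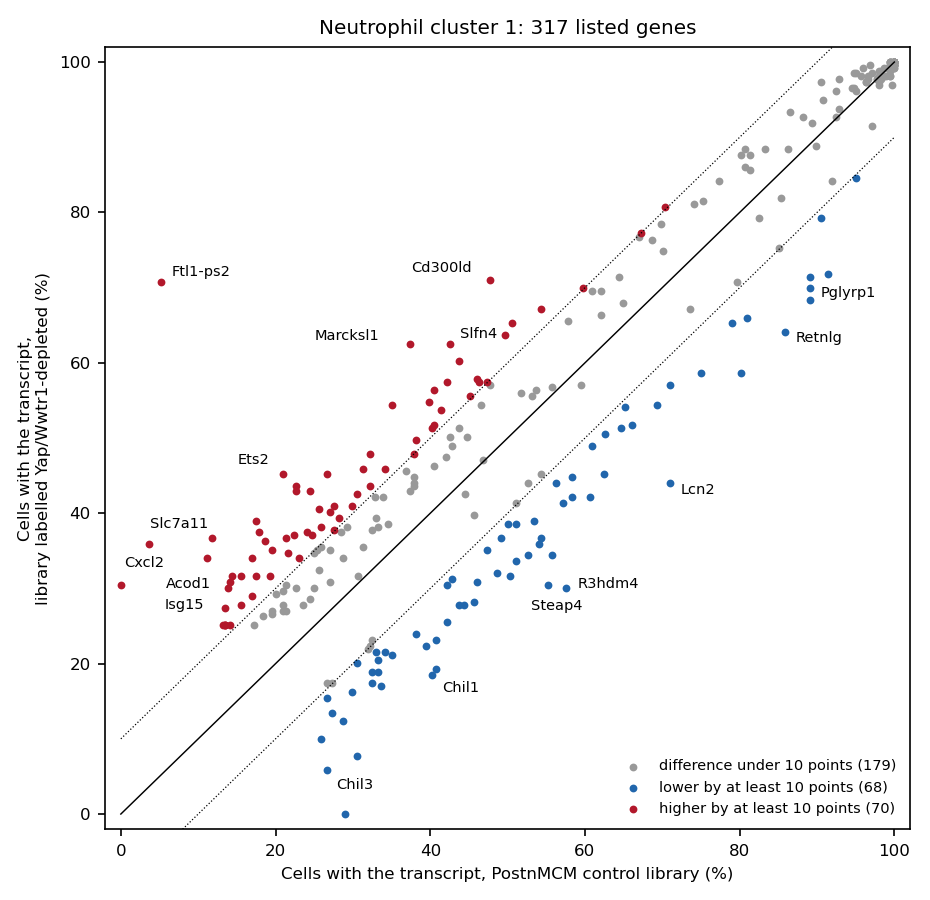
Share of cluster 1 cells with each of the 317 listed transcripts in the PostnMCM control library (x axis, %) and in the labelled Yap/Wwtr1-depleted library (y axis, %). Each point is a gene, the solid line marks equal shares and the dotted lines mark 10 points. Of the 138 genes beyond the dotted lines, 68 lie below and 70 above, and 79 genes crowd at 95% or more in both libraries.

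Of 30 granule protein genes, 8 were listed in cluster 1, and 6 of the 8 were lower by at least 10 points and none higher, where 21.5% of all cluster 1 genes were lower. Of the 6, 3 were under 25% in the labelled-depleted library and were listed through the control library alone. Lcn2 (chromosome 2, 32274645 to 32278264, GRCm39), which encodes the iron-trapping lipocalin 2 of specific granules, was found in 71% of control cells and 44% of cells of the labelled-depleted library. Chil1, which encodes a chitinase-like lectin of specific granules, was found in 40.2% and 18.5%. Chil3, another chitinase-like protein, made by myeloid cells and by immature neutrophils in particular, was found in 26.7% and 5.8%. These 3 genes therefore each lost at least 20 points, and Chil3 was left in a small minority of cells.

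The other granule genes differed by less. Padi4, the enzyme that converts histone arginine to citrulline during the release of neutrophil extracellular traps, was at 32.5% and 17.4%. Wfdc21 was at 69.3% and 54.4%, and the haemoglobin scavenger gene Hp at 90.5% and 79.2%. Anxa1, which encodes annexin A1, and Lyz2, which encodes lysozyme, were above 90% in both libraries, at 97.1% and 91.5% and at 99.7% and 99.6%. Lower shares were thus seen among listed granule genes that were not already near 100% in both libraries. Pglyrp1, a peptidoglycan recognition protein stored in granules but not on the list, was at 89.1% and 69.9%.

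The 15 largest drops in share, leaving aside pseudogenes and provisional gene symbols, were R3hdm4, Lcn2, Steap4, Retnlg, Chil1, Cyp4f18, Gsdme, Asprv1, Chil3, Ypel3, Gsr, Pglyrp1, Dck, Siglece and Sephs2. R3hdm4 was found in 57.5% of control cells and 30.1% of cells of the labelled-depleted library. Steap4, a metalloreductase, was at 55.2% and 30.5%. Cyp4f18, a cytochrome P450 that inactivates leukotriene B4, was at 80.2% and 58.7%, and Gsr, glutathione reductase, was at 91.4% and 71.8%. Siglece, an inhibitory receptor that binds sialic acid, was at 60.6% and 42.1%. Gsdme, which encodes a pore-forming gasdermin, was at 40.8% and 19.3%, and the skin and neutrophil protease gene Asprv1 at 55.7% and 34.4%. The range of these 15 ran from Sephs2, a selenophosphate synthetase at 52.6% and 34.4%, to R3hdm4.

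Transcripts of lysed neutrophils can enter droplets of other cells, so the same genes were read in the fibroblast subclusters, where neutrophil-specific transcripts are not expected. Retnlg was found there in 21.7% to 40% of control cells and 0.0% to 4.8% of cells of the labelled-depleted library. Chil3 was found in 43.5% to 80% and 0.0% to 9.4%, shares in the control fibroblasts that exceed the 26.7% of control cluster 1. For Lcn2 the ranges were 17.4% to 37.5% and 4.8% to 31.2%, lower in the labelled-depleted library in 2 of the 4 subclusters. Chil1 was at 0.0% to 11% and 0.0% to 34.4%, higher in the labelled-depleted library in 3 of the 4. Gsdme was also higher in fibroblasts, at 8.7% to 23.3% in control cells and 57.1% to 69.6% in the labelled-depleted library, opposite to its direction in cluster 1. The part of free RNA in the cluster 1 differences was not tested.

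Over all 68 genes lower in cluster 1, 27 (39.7%) were also lower in at least 3 of the 4 fibroblast subclusters, compared with 25.7% of the 15059 genes in the subcluster tables. The 6 lower granule genes had 3 such members, and the 15 largest falls had 5. Beside this, S100a8 was listed in 11 of the 16 other cluster tables, at 25% to 68.3% in control cells and 5.9% to 51.9% in the labelled-depleted library and lower there in 9, and S100a9 in 13, lower in the labelled-depleted library in every one of those 13. Shares of S100a8 and S100a9 outside the neutrophil clusters thus mostly moved in the same direction as Retnlg and Chil3 in cluster 1. Whether these transcripts came from neutrophils or from the cells of those clusters was not tested. Chil3 was itself listed in 13 other clusters and was lower in all of them, while Lcn2 was listed in 2 of the macrophage or monocyte clusters, at 34.7% and 6.2% in cluster 11 and at 26.3% and 8.5% in cluster 13.

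**Figure D2:**
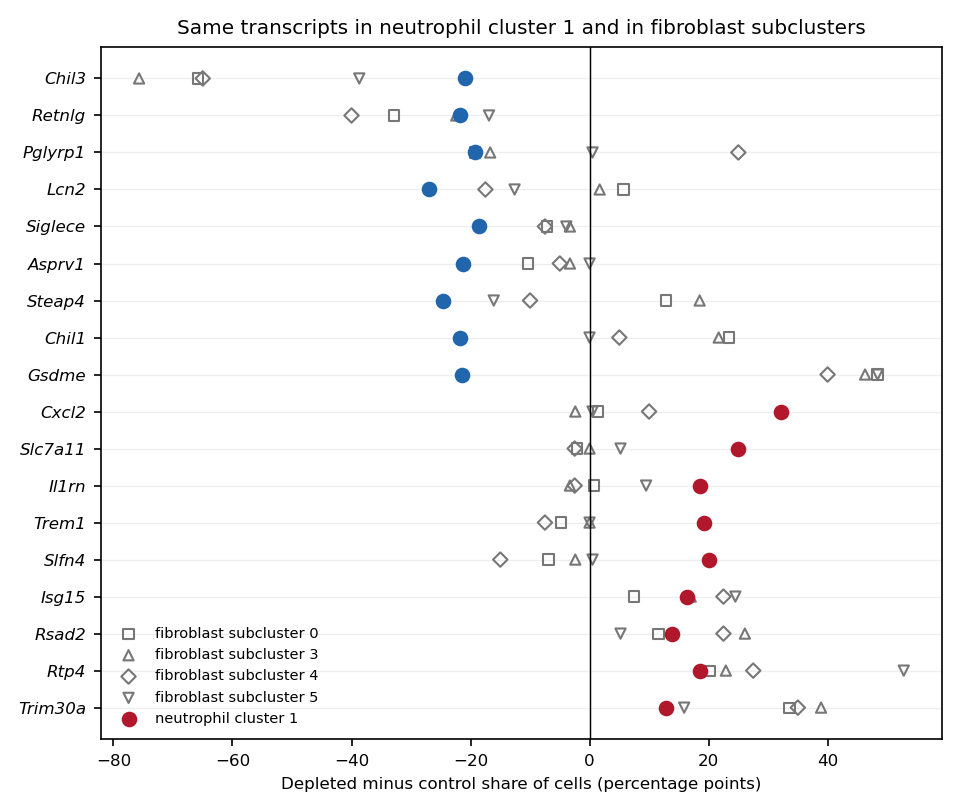
Difference in the share of cells with a transcript, labelled Yap/Wwtr1-depleted library minus control (x axis, percentage points), for 18 genes chosen after their values were seen. Filled circles are cluster 1 and open symbols the 4 fibroblast subclusters. Chil3 and Retnlg lie left of 0 in cluster 1 and in all 4 subclusters, Gsdme lies on opposite sides, and Cxcl2, Slc7a11 and Trem1 lie between -7.5 and 10 points in the fibroblasts.

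Of 31 cytokine and mediator genes, 7 were listed in cluster 1, with 4 higher by at least 10 points and none lower, where 22.1% of all cluster 1 genes were higher. Of the 4, 3 had control shares under 25% and were listed through the labelled-depleted library alone. Cxcl2 (chromosome 5, 91051730 to 91053797, GRCm39), a chemokine that draws in more neutrophils through CXCR2, was found in 3.7% of control cells and 35.9% of cells of the labelled-depleted library, the largest rise in share among genes with an established symbol. Csf1, the growth factor of macrophages, was at 22.7% and 42.9%. Ptgs2, the inducible cyclooxygenase of prostaglandin synthesis, was at 17.8% and 37.5%. Il1rn, which encodes the interleukin 1 receptor antagonist, was at 26.7% and 45.2%. Each of the 4 gained 18.5 points or more.

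The remaining members showed no gap of that size. Il1b, which encodes interleukin 1 beta, was found in 94.8% and 96.5% of cells, and the chemokine Ccl6 in 99.7% and 99.6%, so both were close to the ceiling of the measure. Spp1, which encodes osteopontin and is also a macrophage marker, was at 44.5% and 42.5%. Cells with Cxcl2 were rare in fibroblasts of both libraries, at 0.0% to 6.7% of control cells and 4.3% to 10% of cells of the labelled-depleted library. Il1rn was likewise at 0.0% to 5.5% and 0.0% to 9.5% there. Csf1, which fibroblasts make themselves, was at 37.5% to 69.6% and 43.5% to 70%. Among the other clusters, Cxcl2 and Il1rn were listed in cluster 13 alone, a macrophage or monocyte cluster, with Cxcl2 at 4.2% and 29.6% and Il1rn at 15.8% and 31%. Ptgs2 was found in 13.3% to 22.8% of control fibroblasts and 4.8% to 21.7% of those in the labelled-depleted library, lower there in 3 of the 4 subclusters, opposite to its direction in cluster 1. Ptgs2 and Csf1 were listed in no other cluster.

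The 15 largest rises also included Slc7a11, Acod1, Marcksl1, Ets2 and Crlf2. Slc7a11, the cystine importer that feeds glutathione synthesis, was found in 11.8% of control cells and 36.7% of cells of the labelled-depleted library, and in at most 4.3% and 9.5% of fibroblasts. Acod1, whose product makes itaconate from an intermediate of the citric acid cycle, was at 11.2% and 34%. Both had low control shares, and both were listed in no other cluster. Marcksl1, an actin-regulating substrate of protein kinase C, was at 37.4% and 62.5%, the transcription factor Ets2 at 21% and 45.2%, and the cytokine receptor chain Crlf2 at 14.4% and 31.7%. The smallest of these 15 gaps was that of Crlf2.

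Of 36 pattern recognition, Fc and related receptors, 13 were listed in cluster 1, and 7 were higher by at least 10 points, where 22.1% of all cluster 1 genes were, 2 of them with control shares under 25%. The one lower member was Siglece. Cd300ld was found in 47.7% and 71% of cells, the C-type lectin Clec4n (dectin 2, a receptor for fungal mannans) in 17.5% and 39%, and Trem1, an amplifier of Toll-like receptor signalling, in 35.1% and 54.4%. Cd14, the co-receptor for endotoxin, was at 50.6% and 65.3%, Tlr2 at 17% and 29%, the tumour necrosis factor receptor Tnfrsf1b at 34.2% and 45.9%, and Il1r2 at 59.8% and 69.9%. By the log2 ratio of shares 4 members in place of 7 counted as higher. Trem1 was found in at most 7.5% of fibroblasts of the control library and in 0.0% in the labelled-depleted library, and Cd300ld in at most 10% and 13%.

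Chemotaxis receptors had 6 listed members of 23, of which 3 were higher by at least 10 points, beside the 22.1% of all genes, and none lower. By a log2 ratio of shares of at least 0.5 none of the 3 counted as higher, and at 5 points 5 members did. Cxcr4, which holds neutrophils in bone marrow and rises as they age, was at 45.1% and 55.6%. The formyl peptide receptor Fpr2 was at 41.4% and 53.7%, and Ptafr, the receptor for platelet activating factor, at 39.9% and 54.8%. Fpr1 at 29.3% and 38.2% and the complement receptor C5ar1 at 67% and 76.8% lay just under 10 points. Of 26 genes of survival and NF-kappa-B feedback, 8 were listed, all 8 with a higher share and 3 by at least 10 points, beside 173 of all 317 genes with a higher share and 22.1% higher by 10 points. They were Bcl2l11, which encodes the pro-apoptotic protein BIM, at 15.5% and 31.7%, Nfkbiz at 21.3% and 36.7%, and the anti-apoptotic Bcl2a1b at 27% and 40.2%. Bcl2a1b has near-identical copies in the mouse genome, and its reads may be split among them.

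**Figure D3:**
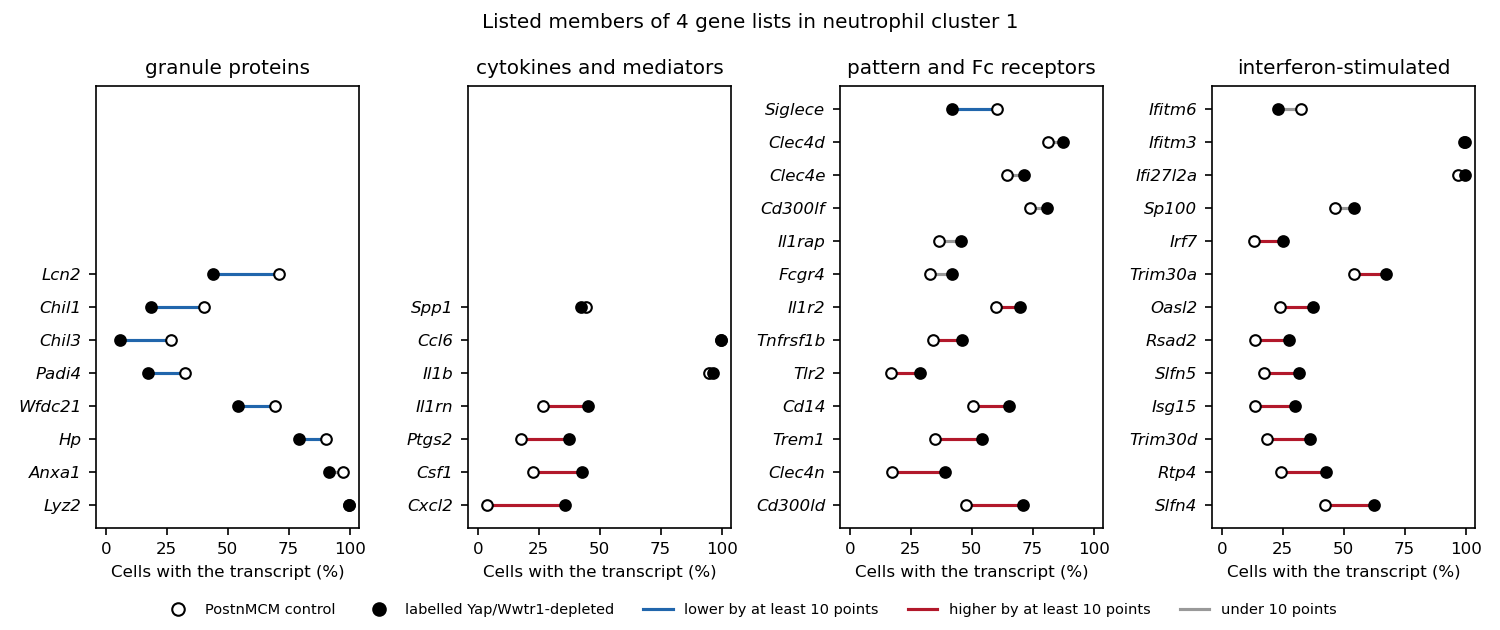
Listed members of 4 gene lists in cluster 1, with the share of cells holding the transcript (x axis, %) in the PostnMCM control library (open circles) and in the labelled Yap/Wwtr1-depleted library (filled circles). The lines are blue for genes lower by at least 10 points, red for genes higher and grey otherwise. Of the granule genes 6 of 8 run to lower shares, and 4 of 7 cytokine, 7 of 13 receptor and 9 of 13 interferon genes run to higher shares.

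Of 87 interferon-stimulated genes, 13 were listed in cluster 1, with 9 higher by at least 10 points and none lower, where 22.1% of all cluster 1 genes were higher. Of the 9, 7 had control shares under 25% and were listed through the labelled-depleted library alone. Slfn4, a myeloid schlafen, was found in 42.5% and 62.5% of cells, and Rtp4, which restrains interferon responses, in 24.4% and 42.9%. Isg15, a ubiquitin-like protein attached to other proteins after interferon, was at 13.8% and 30.1%. The antiviral radical enzyme gene Rsad2 was at 13.5% and 27.4%, and the transcription factor gene Irf7 at 13.2% and 25.1%. Oasl2 was at 24.1% and 37.5%, Slfn5 at 17.5% and 31.7%, Trim30a at 54.3% and 67.2% and Trim30d at 18.7% and 36.3%. Trim30a and Trim30d are close paralogues in 1 cluster on chromosome 7, and their reads may be exchanged. Ifi27l2a at 96.8% and 99.6% and Ifitm3 at 99.4% and 99.6% were near the ceiling, and Ifitm6 was the one member with a lower share, 32.5% and 23.2%.

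Most of these 9 genes were also higher in fibroblasts. Of the 9, 7 were higher in the labelled-depleted library in all 4 fibroblast subclusters, compared with 982 of the 15059 genes measured there. Isg15 was found in 56.5% to 80% of control fibroblasts and 80% to 87.5% of those in the labelled-depleted library, and Rtp4 in 4.3% to 51.7% and 57.1% to 71.9%. Irf7 was listed higher in 5 other clusters, Oasl2 in 6 and Rtp4 in 5, while Trim30a was higher in 5 of the 7 that listed it. The exceptions were Slfn4, found in 4.3% to 15% and 0.0% to 4.8% of fibroblasts, and Slfn5, lower in all 4 subclusters. Slfn4 was listed in 2 other clusters and Slfn5 in 4, and both were higher in each. Some other interferon genes that were listed outside the neutrophils ran lower there, among them Ifi209, lower in all 6 clusters that listed it, and Irf1, lower in 3 of 4. Outside the neutrophil clusters the list had 257 listed pairs of gene and cluster, 143 higher by at least 10 points and 47 lower. Over the whole list, 82 of the 87 genes were in the fibroblast subcluster tables, which carry no listing limit, and 55 (67.1%) were higher in at least 3 of the 4 subclusters and 10 (12.2%) lower, compared with 27.7% and 25.7% of all genes there. Rsad2 was listed in no other cluster, but its share in fibroblasts was 0.0% to 10.3% and 9.5% to 30%, so its listing in cluster 1 alone did not mean that it was level elsewhere.

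Type I interferon acts on many of these genes through the interferon-stimulated response element, which was searched for on both strands as TTTC, any 2 bases, and TTTC again, in windows from 250 bases before to 50 bases after each RefSeq start (GRCm38.p6 table). Of the 9 genes, 8 had such a window and 5 held a match (Isg15, Rsad2, Slfn5, Trim30a and Trim30d), while Irf7, Oasl2 and Slfn4 held none and Rtp4 had no window in the table. Of all 27025 genes with a window, 3.99% held a match. Of the whole interferon list, 38 of 68 genes with a window (55.9%) held one, close to the 5 of 8. Among genes higher in cluster 1, 7 of 57 with a window held a match, and these 7 include the 5 interferon genes just named. Among genes lower in it, 1 of 46 held a match. Upstream bases of 3 of the 5 are printed to show the element itself, in the direction of the gene, with matches in capitals; each was found once on its chromosome in GRCm39, on the minus strand, before the start of the gene. They lie at chr4:156285304-156285398, chr12:26506517-26506616 and chr7:104114408-104114481.
Isg15: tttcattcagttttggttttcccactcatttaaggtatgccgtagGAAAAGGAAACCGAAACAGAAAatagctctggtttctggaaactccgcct
Rsad2: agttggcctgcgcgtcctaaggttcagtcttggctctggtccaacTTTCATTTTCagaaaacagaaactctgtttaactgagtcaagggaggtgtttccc
Trim30a: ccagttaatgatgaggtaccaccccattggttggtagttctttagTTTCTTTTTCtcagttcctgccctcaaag
In Isg15, 3 overlapping matches lie on the opposite strand, so the capitals read as GAAA repeats. A match describes the letters of the window, and binding was not measured.

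Other gene groups had few members that moved by 10 points in cluster 1. Of 34 genes of glycolysis and hypoxia, 4 were listed, with Slc16a3, a lactate exporter, higher at 42.2% and 57.5% and Slc2a3, a glucose importer, at 52.6% and 44%. Of 33 iron and redox genes, 12 were listed, 6 of them saturated. Hp and the glutathione transferase Mgst1, at 33.3% and 20.5%, were lower, and the oxidative stress regulator Nfe2l2, at 67.2% and 77.2%, was higher. Lipid mediator genes had 8 listed members of 25, with Ptgs2 and the lipase inhibitor G0s2, at 19.5% and 35.1%, higher and the fatty acid carrier Fabp5, at 53.4% and 39%, lower. Actin and motility genes had 6 listed members of 39, 4 of them saturated, and Marcksl1 was the one that moved by 10 points.

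No listed member of several lists moved by 10 points in cluster 1, but apart from 3 of the 6 immediate early genes all of these members were at 95% or more in both libraries and could show no direction. These lists were the immediate early genes (6 of 32 listed, among them Fos at 98% and 96.9%), which are induced within minutes of cell stress and handling. Also among these lists were the NADPH oxidase genes (2 of 8 listed, Ncf4 and Rac2), the S100 alarmins (1 of 11, S100a11), MHC class I (2 of 31) and class II (1 of 11, H2-Ab1 at 95.1% and 96.1%), and the cell cycle genes (1 of 29, Hmgb2). Protease inhibitors and cathepsins had 5 of 28 listed, of which Wfdc21 was lower. Of 18 macrophage markers, 3 were listed: Apoe at 100% and 99.2%, Spp1 as given above, and the platelet and macrophage chemokine Pf4, lower at 42.8% and 31.3%. Pf4 and H2-Ab1 are not neutrophil markers. In fibroblasts Pf4 was found in 34.8% to 51.7% and 10% to 33.3% of cells, and the part of free RNA or doublets in these shares was not tested.

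Cluster 18 was read on a coarser scale. Its shares took 12 distinct values in the control library, in steps of 9.1 points, and 18 values in the labelled-depleted library, in steps of 5.9 points, so a gap of 10 points is little more than 1 step and steps of this width leave few cells behind each share. Of its 1426 genes, 740 (51.9%) were lower by at least 10 points in the labelled-depleted library and 421 (29.5%) were higher, and the median difference was -11.8 points. At 15 points, the sum of 1 step in each library, 661 were lower and 348 higher. The listing limit was itself met unevenly, by 27.3% as the lowest qualifying share in the control library and 29.4% in the other, and 468 of the 740 lower genes and 263 of the 421 higher genes were under 25% in one library. Counts of any gene list in cluster 18 are to be read against these counts over all its genes, and their lean to lower shares was not separated from the listing limit.

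Most listed granule genes were found in nearly all cells of cluster 18. Camp, which encodes the antimicrobial peptide cathelicidin, was found in 100% of cells of both libraries. Ltf, which encodes lactotransferrin, was at 90.9% and 100%, and Chil3 also at 90.9% and 100%. Camp and Ltf were not listed in cluster 1 and have no value there, and Chil3 was in at most 26.7% of its cells. Pglyrp1 was at 100% in both libraries, Hp and Padi4 were at 100% and 94.1%, and Chil1 was at 100% and 88.2%. Of the 10 listed granule genes only Mmp8 and Chil1 were lower by 10 points and none was higher. Cell cycle genes, which dividing precursors express, had 10 listed members of 29, with 6 lower by at least 10 points and none higher. Ccnb2 and Birc5 were each found in 27.3% and 5.9% of cells, a gap of a few steps.

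Of 14 interferon genes listed in cluster 18, 6 were higher by at least 10 points, 5 of them with control shares under 25%, and 3 were lower. Ifi27l2a was found in 9.1% of control cells and 76.5% of cells of the labelled-depleted library, the largest rise in cluster 18 among genes with an established symbol. The 2-5A synthetase genes Oas1a, Oas2 and Oas3 were at 0.0% and 29.4%, at 0.0% and 35.3% and at 9.1% and 47.1%. Rtp4 was at 0.0% and 35.3%. In contrast, the signal transducer Stat2, at 27.3% and 5.9%, and the galectin Lgals9, at 72.7% and 35.3%, were among the lower members. Of 5 listed genes of MHC class I, 4 were higher, with H2-K1 at 45.5% and 76.5%. Ifi27l2a and H2-K1 were saturated in cluster 1, where no direction could be read.

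The other lists in cluster 18 had these counts. Receptor genes had 9 lower and 4 higher of 15 listed, chemotaxis receptors 4 lower and 2 higher of 8, and cytokines 3 lower and none higher of 4. Survival genes had 2 lower and 1 higher of 4, immediate early genes 2 lower and 3 higher of 7, and glycolysis and hypoxia genes 4 lower and 3 higher of 11. Actin genes had 5 lower and 2 higher of 20, iron and redox genes 2 lower and 3 higher of 12, lipid mediators 1 lower and 3 higher of 5, and protease inhibitors and cathepsins 2 lower and 1 higher of 3. S100 alarmins had 1 lower and 3 higher of 5, NADPH oxidase genes 0 lower and 1 higher of 4, MHC class II genes 2 lower of 2, and macrophage markers 1 lower and 1 higher of 3. The ribosomal protein genes were balanced, with 6 lower and 6 higher of 45. All 4 listed fibroblast markers were lower, among them Sparc at 36.4% and 0.0% and Col3a1 at 36.4% and 5.9%, as was the globin gene Hbb-bs at 36.4% and 0.0%. These are not neutrophil transcripts, and their part in the lower shares of cluster 18 was not tested.

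Among genes with established symbols, the largest gaps in cluster 18 were these. Mlx, a partner of glucose-sensing transcription factors, and Fkbp8, a mitochondrial immunophilin, were each found in 72.7% of control cells and 5.9% of cells of the labelled-depleted library. Ppp1cc, a catalytic subunit of protein phosphatase 1, was at 81.8% and 17.6%. The other 7 of the 10 largest falls were Nfic, Prpf18, Selenot, Dok2, Eloc, Wdr61 and Hcfc1r1. On the higher side, after Ifi27l2a, the splicing factor Srsf2 was at 18.2% and 76.5%, and Lmo1, a LIM-domain transcriptional cofactor, was at 0.0% and 52.9%. The remaining rises were Trp53inp1, Jund, Eef2, Afg3l1, Cops9, Zfp131 and Upp1. Jund was in 100% and 99.6% of cluster 1 cells, where it was saturated and could show no direction.

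Cluster 18 repeated part of cluster 1. The tables shared 147 genes, which are 46.4% of the cluster 1 list and 10.3% of the cluster 18 list. Of these, 47 moved by at least 10 points in both, 33 the same way and 14 in opposite ways. Of the 68 genes lower in cluster 1, 36 were listed in cluster 18, where 22 were lower, 4 higher and 10 within 10 points. Of the 70 genes higher in cluster 1, 24 were listed there, where 11 were higher, 10 lower and 3 within 10 points. Because 51.9% of all cluster 18 genes were lower and 29.5% higher, the repeats are to be read against those shares.

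Among the repeated lower genes were R3hdm4, at 100% and 76.5% in cluster 18, Gsr, also at 100% and 76.5%, and Chil1, at 100% and 88.2%. Cyp4f18 and the deoxynucleoside kinase gene Dck were both at 27.3% and 5.9%, and Asprv1 was at 45.5% and 5.9%. The mitochondrial iron importer Slc25a37 was at 25.9% and 10% in cluster 1 and at 36.4% and 11.8% in cluster 18. The cell cycle inhibitor Cdkn2d was at 46% and 30.9% in cluster 1 and at 100% and 76.5% in cluster 18, and the membrane-bending protein gene Bin2 was at 45.7% and 28.2% and at 72.7% and 29.4%. Further repeated lower genes with established symbols included Klra17, Svil, Arid4a, Hacd4, Hmgn2, Atg3, Eif4ebp1, Clip1, Hcst and Basp1.

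Repeated higher genes included Rtp4, Ptafr, at 18.2% and 41.2% in cluster 18, and Nfkbiz, at 18.2% and 29.4%. Il1r2 was at 45.5% and 58.8% there, and St3gal4, a sialyltransferase that builds selectin ligands, was at 40.5% and 51.7% in cluster 1 and at 18.2% and 47.1% in cluster 18. The other repeated higher genes with established symbols were Trim12a, Mtmr3 and Snx18, with Mtmr3 at 54.5% and 64.7% and Snx18 also at 54.5% and 64.7%. Il1rn and Slfn4 pointed the same way in cluster 18 by less than 10 points, at 27.3% and 35.3% and at 72.7% and 82.4%. The leading inflammatory genes of cluster 1, Cxcl2, Slc7a11, Acod1, Csf1 and Ptgs2, were not listed in cluster 18. Among the largest falls of cluster 1, Lcn2 was not listed in cluster 18, and Retnlg and Chil3 had higher shares there by less than 10 points.

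**Figure D4:**
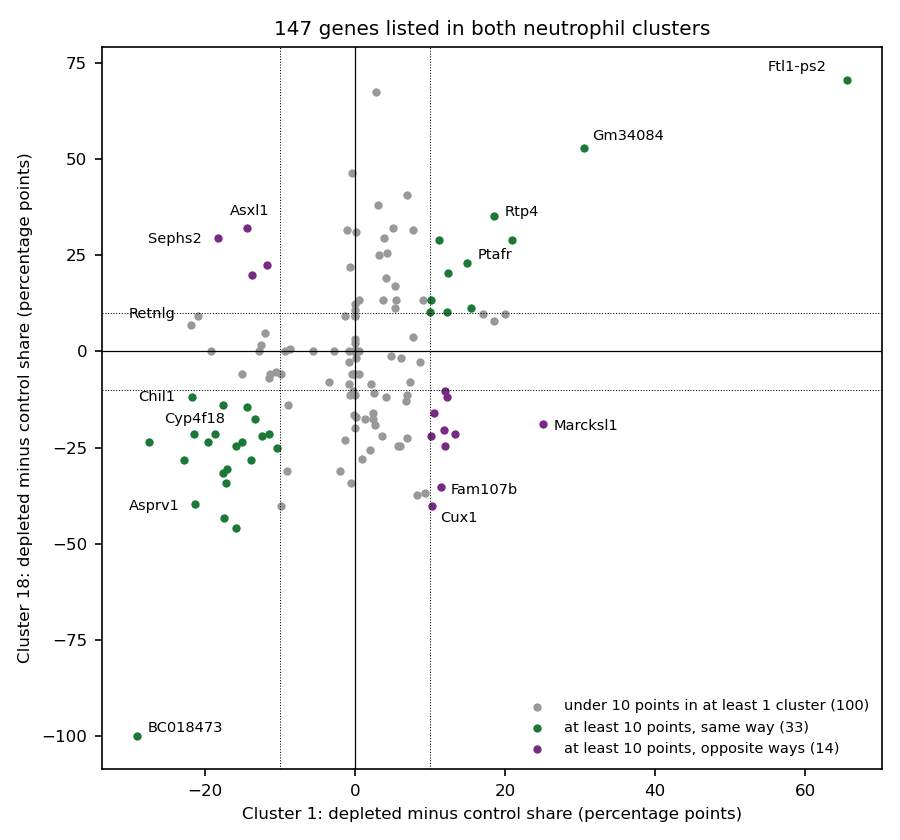
Difference in share, labelled Yap/Wwtr1-depleted library minus control, in cluster 1 (x axis, percentage points) and cluster 18 (y axis, percentage points) for the 147 genes listed in both. Dotted lines mark 10 points. The 33 green genes moved the same way in both clusters, the 14 purple genes in opposite ways, and Ftl1-ps2 and BC018473 lie farthest out.

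A total of 340 genes were listed for the neutrophil clusters and for no other cluster, which is 21.3% of the 1596 neutrophil genes. There were 35 in cluster 1 (11% of its list) and 311 in cluster 18 (21.8%), with 6 in both. For comparison, the genes listed in a single table made up 1.7% to 31.2% of each of the 16 others, with a median of 11.2%, and cluster 1 alone held 29 such genes (9.1%). A table that lists a gene alone says that the gene passed the size and detection limits in no other cluster, and not that the transcript was absent there.

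Of the 35 cluster 1 genes, 13 were lower by at least 10 points and 10 higher, beside 21.5% lower and 22.1% higher among all 317. The largest falls with established symbols included Steap4, Chil1, Siglece, Mtus1, Xpc, Cd101, Cstdc5, Phospho1 and Rasgrp4. Cd101, a surface protein that appears on mature mouse neutrophils, was found in 44.3% of control cells and 27.8% of cells of the labelled-depleted library. The microtubule-associated Mtus1 was at 54% and 35.9%, the DNA damage sensor Xpc at 33.6% and 17%, and the Ras exchange factor Rasgrp4 at 56.3% and 44%. Cstdc5, a stefin with close copies at its locus, was at 27.3% and 13.5%, and its reads may be shared with them.

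The 10 higher genes were Slc7a11, Acod1, Csf1, Ptgs2, G0s2, Rsad2, Itprip, Mtmr3, Mefv and Il1r2. Mefv, which encodes the inflammasome sensor pyrin, was at 23% and 34%, and Itprip, a modulator of inositol trisphosphate receptors, was at 24.7% and 37.1%. The 6 genes listed in both neutrophil tables and nowhere else were Rflnb, Chil1, Mtmr3, Il1r2, Gm51671 and Bmx.

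Cluster 18 alone supplied 305 of the 340. Of its 311, 166 were lower by at least 10 points and 108 higher, beside 51.9% lower and 29.5% higher among all 1426 cluster 18 genes. The largest falls were Prpf18 at 81.8% and 23.5% and the calcium sensor Stim2 at 81.8% and 29.4%, and the largest rises were Lmo1, Upp1 and Nqo2, the last a quinone reductase at 9.1% and 52.9%. Irak4, a kinase below Toll-like receptors, was at 9.1% and 47.1%. Trpm2, a calcium channel that opens on oxidative stress in neutrophils, was at 54.5% and 11.8%.

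**Figure D5:**
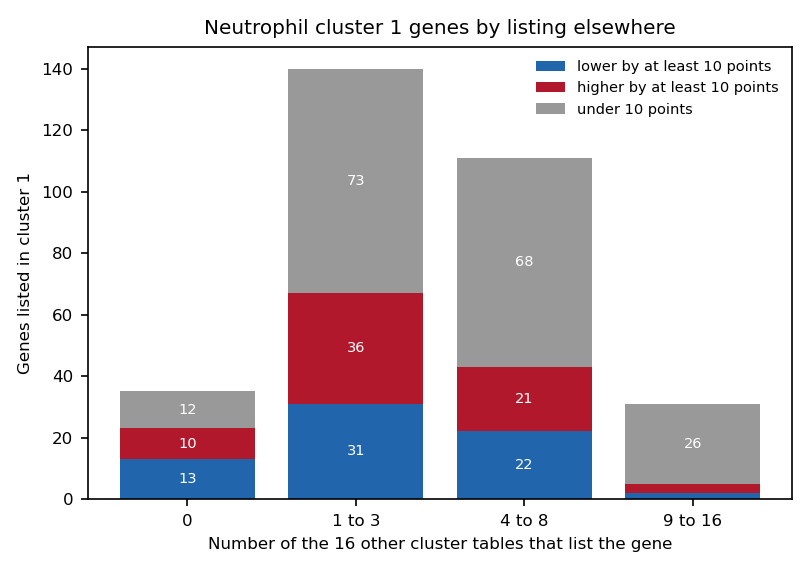
Number of cluster 1 genes (y axis) by how many of the 16 other cluster tables list them (x axis), coloured by the difference in share. The bars hold 35, 140, 111 and 31 genes, and 13 lower and 10 higher genes fall in the bar of genes listed in no other table. Of all 317 genes, 21.5% were lower and 22.1% higher.

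Most cluster 1 genes were listed in other cell types as well. Of the 16 other tables, 1 to 3 listed 140 genes, 4 to 8 listed 111 and 9 to 16 listed 31. The direction elsewhere was not always that of cluster 1. Cyp4f18 was listed in 3 other clusters and Dck in 3, and both had higher shares in the labelled-depleted library in each of them, at 34.7% to 52.1% and 67.3% to 70.9% for Cyp4f18 and at 19.1% to 36.4% and 42.4% to 61.8% for Dck. Clec4n, higher in cluster 1, was lower in 4 of the 5 other clusters that listed it. R3hdm4, Sephs2 and Gsr were lower in each non-neutrophil cluster that listed them, 2, 2 and 6 in number, whereas Sephs2 was higher in cluster 18. In the 4 fibroblast subclusters, which carry no listing limit, R3hdm4 was higher in 3, Sephs2 higher in 2 and Gsr lower in all 4. These differences between clusters were not tested.

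A few provisional or pseudogene symbols showed nearly all-or-none differences in both neutrophil clusters. Ftl1-ps2, a ferritin light chain pseudogene, was found in 5.2% of control cells and 70.7% of cells of the labelled-depleted library in cluster 1, and in 0.0% and 70.6% in cluster 18. It was listed in all 16 other cluster tables. BC018473 was at 29% and 0.0% in cluster 1 and at 100% and 0.0% in cluster 18, and it was listed in 14 others. Gm34084 was at 0.0% and 30.5% and at 0.0% and 52.9%, and was listed in 4 others. These shifts accompanied the library in nearly every cell type for Ftl1-ps2 and BC018473. Ftl1-ps2 closely resembles Ftl1, whose reads it may share, and its share is uncertain for that reason. Cluster 18 had 63 genes at 2% or less in the labelled-depleted library and at least 25% in control cells, BC018473 included, and 47 in the reverse direction.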

How the data were processed

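Sequencing, alignment and clustering were done by the authors: 10x V3.1 libraries were aligned with Cell Ranger 6.1.1 to GRCm39 with reporter sequences, merged without depth normalization, and processed in Seurat with SCTransform. The deposited tables hold, for each cluster, the fraction of cells of each library with a corrected count above 0. This fraction, as deposited by the authors, was multiplied into percent and is the measure used here. The authors' fold changes and their p-values over cells, in the same tables, were not used. Checked on the tables, each listed gene was found in 25% or more of the cells from one library or the other, while the 4 fibroblast subcluster tables list 15059 genes each without limits, from a separate normalization. Shares of transcript detection depend on depth, which is unknown here. Cluster 16 and the other subclusters were not analysed here. No doublet caller is named in the sources used here, so doublets may remain. The labels give collection at 6 days after MI, and the study's methods give a different day.

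A gene was counted as lower or higher at a difference of 10 points. Counts were computed with Python and pandas and tested on simulated tables. No test of genotype was made because there was 1 library per group. Named genes were, leaving out provisional symbols, the 15 largest falls and rises of cluster 1, the 10 of cluster 18, and the 10 among genes listed in no other cluster. Also named were genes moved in both clusters, genes at 2% or less in one library and at least 25% in the other, neutrophil markers, members of the gene lists that moved in cluster 1, Yap1 and Wwtr1. Further genes are named from the gene lists or as examples chosen after their values were seen. The cluster members and the 26 gene lists were chosen with earlier results of these data known. Promoter windows come from RefSeq and gene coordinates from GENCODE on GRCm39. Alternatives were thresholds of 5 and 20 points, a log2 ratio of shares of 0.5 with 1 point added, leaving out provisional symbols or genes in at least 9 cluster tables, and, added after seeing the data, leaving out genes lower in at least 3 fibroblast subclusters. A few genes that meet these rules are not reported here.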

Additional observations from a re-analysis of the deposited data

Results flagged for a closer look

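In 14 genes the neutrophil clusters moved in opposite ways, each by at least 10 points. The difference between the clusters was not tested, and 1 step of a share in cluster 18 is 9.1 points in the control library and 5.9 points in the other. Lower in cluster 1 and higher in cluster 18 in the labelled-depleted library were Sephs2 (-18.2 points in cluster 1 and 29.4 in cluster 18), Asxl1 (-14.4 and 32.1), Emb (-13.7 and 19.8) and Tprgl (-11.7 and 22.4). Higher in cluster 1 and lower in cluster 18 were Marcksl1 (25.1 and -18.8), LOC118568773 (13.3 and -21.4), Fpr2 (12.3 and -11.8), Tlr2 (12.0 and -10.2) and Slc15a3 (12.0 and -24.6). The same held for Samsn1 (11.9 and -20.3), Fam107b (11.4 and -35.3), Cxcr4 (10.5 and -16.1), Cux1 (10.3 and -40.1) and Snx20 (10.1 and -22).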

How the results depend on the processing

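No paired analysis was possible because there was only a single library of each genotype. At 20 points in place of 10, cluster 1 had 12 lower and 12 higher genes, cluster 18 had 280 higher genes, and 8 genes moved the same way and 0 in opposite ways in both clusters. At 5 points, cluster 1 had 82 lower and 124 higher genes, and 51 and 24 genes moved the same and opposite ways. By the log2 ratio of shares, cluster 1 had 42 lower genes, and 17 and 4 genes moved the same and opposite ways. Leaving out genes lower in at least 3 fibroblast subclusters, chosen after seeing the data, cluster 1 kept 41 lower genes of 68. Counting a gene as listed elsewhere only with a 10 point difference there, 542 genes instead of 340 were listed in the neutrophil clusters alone. The other counts stayed within 1.5 times the reported value under each alternative. Of 208 recomputed list counts, 168 stayed within that limit. The 208 include lists without a listed member in a cluster, whose counts could only stay at 0. The sign was the same for all 197 named gene values as a log2 ratio. That holds for any pair of shares, so it could not check a direction. By the log2 ratio the higher members in cluster 1 went from 3 to 0 for chemotaxis receptors, from 7 to 4 for pattern and Fc receptors, and from 1 to 0 for glycolysis and for iron and redox genes. The lower members went from 3 to 1 for neutrophil markers, from 2 to 1 for iron and redox genes, and from 1 to 0 for protease inhibitors, lipid mediators and macrophage markers. Among the cluster 18 lists, the lower members went from 3 to 0 for neutrophil markers and from 2 to 0 for granule proteins. The higher members there went from 1 to 0 for neutrophil markers and from 3 to 1 for S100 alarmins. Depth is unknown, saturated genes can show no direction, and 1 library per group allows no error.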
